A study of Homo sapiens with 6 samples.

Results

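The genes described here are 9 markers of megakaryocytes and platelets, chosen by name as known markers of these cells, with earlier results of these data known: ITGA2B, ITGB3, GP1BA, GP1BB, GP9, PF4, FLI1, SELP and TUBB1. The rule itself used no measured value. Of the 31142 genes in the deposited table, 7 are members of this group, and PF4 and SELP were not analysed here. A mean of at least 1 FPKM (a fragment count divided by transcript length and by library depth) over the 6 libraries was required for a test, and 4 members passed: GP1BB, TUBB1, ITGA2B and ITGB3.

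RNA was sequenced from cells labelled SKM-1, a human myeloid leukemia line established from a myelodysplastic syndrome (MDS), in 3 libraries labelled U2AF1-S34F and 3 labelled U2AF1-WT, each taken at 96 h. U2AF1 is the splicing factor subunit that recognises the end of the intron at the 3′ splice site, and S34F is a recurrent MDS mutation in it. According to the study's methods, FLAG-tagged U2AF1 was expressed from the lentiviral vector GV492 under a ubiquitin promoter, in puromycin-selected stably transfected cells that also carried GFP, on top of the cells' own U2AF1. The WT titles carry the prefix NC, which the study also uses for negative controls, and its methods say that these were untransfected cells. The methods also call the RNA-seq controls a vehicle control, so the groups here follow the U2AF1 form in the titles. If the WT libraries came from untransfected cells, effects of the vector, GFP and selection could not be told apart from those of S34F. The study describes its RNA samples as independent and in pairs, in triplicate at 96 h, but the sources used here do not say whether they came from separate cultures, so p-values measure the spread between these libraries, which may be technical.

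Megakaryocytes are the bone marrow cells that shed platelets. Platelets hold on to damaged vessel walls through the GPIb-IX complex, which binds von Willebrand factor, and to each other through the integrin formed by the ITGA2B and ITGB3 products, which binds fibrinogen. GATA1 and the ETS factor FLI1 switch many of these genes on during megakaryocyte maturation, and megakaryocytes share GATA1, NFE2 and other factors with red cell precursors. In MDS, low platelet counts and small or misshapen megakaryocytes are common.

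The start of the GP1BB coding region is shown as an example, because the whole GP1BB transcript is shared with a longer gene. GP1BB lies on the plus strand of GRCh38 at chr22:19722945-19724771, and GENCODE 29 places all 1553 of its exonic bases inside exons of the readthrough gene SEPT5-GP1BB and 1006 of them (64.8%) inside exons of SEPT5. Below are the first 60 coding bases of GP1BB, with the 10 bases of its first exon in capitals and the bases after the intron in lower case. They span chr22:19723570-19723903 and were read from the GENCODE 29 transcript.
GP1BB coding start: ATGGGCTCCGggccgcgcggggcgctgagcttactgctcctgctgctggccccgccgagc
The same 60 bases occur in 2 of 2 SEPT5-GP1BB transcripts and in 1 of 13 SEPT5 transcripts. Of the 1454 windows of 100 bases in GP1BB, 100% occur in a SEPT5-GP1BB transcript and 62.4% in a SEPT5 transcript, so a read from this locus does not by itself name its gene.

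A pair of promoter windows is shown because GATA1 and FLI1 act on promoters of this class and because these genes lay on opposite sides of the detection limit: ITGA2B was measured in every library and GP9 was at or under 3 fragments in every library. The windows are RefSeq sequences on GRCh38.p14. That of ITGA2B is the minus strand of chr17:44389650-44389899, which ends 145 bases before the GENCODE 29 start, and that of GP9 is the plus strand of chr3:129060529-129060766, which ends 1 base before it. Capitals mark matches, on either strand, to the GATA letters AGATAA or alternatively AGATAG or alternatively TGATAA or alternatively TGATAG, to the ETS letters CCGGAA or alternatively CAGGAA, and to the RUNX letters TGTGGT or alternatively TGCGGT.
ITGA2B promoter: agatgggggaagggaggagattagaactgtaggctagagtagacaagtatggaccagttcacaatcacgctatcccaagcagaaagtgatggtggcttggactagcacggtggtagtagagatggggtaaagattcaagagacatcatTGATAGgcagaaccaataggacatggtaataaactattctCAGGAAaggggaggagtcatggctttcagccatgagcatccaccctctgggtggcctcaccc
GP9 promoter: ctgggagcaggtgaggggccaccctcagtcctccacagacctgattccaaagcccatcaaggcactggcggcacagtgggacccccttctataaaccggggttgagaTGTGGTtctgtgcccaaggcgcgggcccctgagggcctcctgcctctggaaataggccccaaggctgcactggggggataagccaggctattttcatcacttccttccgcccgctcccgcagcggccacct
The ITGA2B window held 1 GATA and 1 ETS match, and the GP9 window held 1 RUNX match. Of the members not shown, GP1BB and SELP each held 1 GATA and 1 RUNX match, and TUBB1 held 0 of either motif and 0 ETS matches. Of 35116 RefSeq promoters, searched over 250 bases upstream, 22.3% held a GATA match, 35.7% an ETS match, 16.3% a RUNX match and 7.5% both a GATA and an ETS match. Sequences were matched for 5 members, and PF4, GP1BA, FLI1 and ITGB3 were not matched. These letters are a description and not a binding site, and a missing match says only that they are not in this window.

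The libraries held approximately 20.5 to 26.1 M fragments, as read from the FPKM of single-exon genes with 1 fragment, so 3 fragments corresponded to between 0.0214 FPKM for FLI1 and 0.165 FPKM for GP9, depending on the library and transcript. Both libraries numbered 3 stood apart from the other 4 libraries. Their deviations from the group means correlated at 0.38 across genes, and S34F replicate 3 correlated at -0.273 with WT replicate 1 and at -0.205 with WT replicate 2. Deviations from a group mean cancel within the group, so the negative values are tied to the 0.38 and are not separate evidence. Results on the members that turn on the libraries numbered 3 are given with and without them. The labelled cell type was also checked against its markers, with values given at the end. Most monocytic markers were near or under the limit and erythroid genes were abundant, so the identity of the cells as SKM-1 cannot be settled from these levels. The study also worked with the chronic myelogenous leukemia line K562, and reports that its cells were authenticated by short tandem repeats. No comparison with K562 was made here.

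The order of the members by mean FPKM, which is scaled to transcript length, was GP1BB, TUBB1, ITGA2B, ITGB3, GP1BA, GP9 and FLI1. GP1BB ranked 461st of 31142 genes and was above 98.5% of them, and TUBB1 was above 84.5%. The ranges of GP1BB and TUBB1 over the 6 libraries overlapped with no other member, whereas ITGA2B, ITGB3 and GP1BA all overlapped each other and could not be ordered beyond their spread. GP9 and FLI1 were at or under 3 fragments in every library.

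None of the 4 tested members was called as changed in S34F. A call required an unadjusted p under 0.05 from limma on log2(FPKM + 1) and a fold change above 1.5, and 0.585% of the 10942 genes tested met it. At a Benjamini-Hochberg adjusted p under 0.05, the share was 0%, with 262 genes at an unadjusted p under 0.05. The groups overlapped for all 4 tested members, and 7.38% of the genes tested had groups that did not overlap. They also overlapped for GP1BA, below the filter, while for GP9 and FLI1 values at or near 0 left nothing to compare. The smallest p that an exact permutation test can give with 3 libraries against 3 is 0.1. Folds on this scale understate the change of genes near or under 1 FPKM, and in bulk RNA fewer cells of a type and less RNA per cell cannot be told apart.

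GP1BB encodes the beta chain of GPIb, which is joined to the alpha chain by a disulphide bond and helps bring the complex to the surface. It measured 80.9, 81.8 and 98.5 FPKM in S34F replicates 1, 2 and 3 and 106, 103 and 76.5 FPKM in WT replicates 1, 2 and 3. WT replicate 1 was the highest and WT replicate 3 the lowest, with all S34F libraries between them. The means were 87.1 ± 9.91 FPKM in S34F and 95.2 ± 16.2 FPKM in WT (SD, n = 3 each), and the log2 change was -0.12 (SE 0.16, 95% interval -0.49 to 0.26). It passed neither limma (p = 0.477, adjusted p = 1) nor the exact permutation test (p = 0.6, two-sided). Calculated back from FPKM, approximately 2576 to 4237 fragments were assigned to GP1BB in each library, so counting error was small beside the spread between libraries. Error in assigning fragments among the overlapping genes is not included, because all of the GP1BB sequence also occurs in SEPT5-GP1BB. Without both libraries numbered 3, the log2 change was -0.36, with p = 0.000776 and adjusted p = 0.109 in limma and p = 0.333, the smallest possible, in the exact permutation test. That fold was under 1.5, and 1846 of the 10942 genes reached an unadjusted p under 0.05 by limma in the same comparison.

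The neighbouring entries of the GP1BB locus moved far more between libraries than GP1BB did. SEPT5-GP1BB measured 57.1, 57.0 and 4.28 FPKM in the S34F replicates and 54.4, 40.0 and 5.77 FPKM in the WT replicates. SEPT5, a septin gene known in neurons and platelets, measured 13.4, 9.40 and 45.2 FPKM in the S34F replicates and 8.48, 24.7 and 53.7 FPKM in the WT replicates. Both libraries numbered 3 were lowest for SEPT5-GP1BB and highest for SEPT5. The readthrough entry therefore took 81.0, 85.8 and 8.60% of the FPKM of SEPT5 and SEPT5-GP1BB in the S34F replicates, and 86.5, 61.8 and 9.70% in the WT replicates. Neither entry differed between the groups by limma, with log2 changes of -0.31 for SEPT5 (SE 0.76, adjusted p = 1) and 0.070 for SEPT5-GP1BB (SE 1.14, adjusted p = 1).

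The sum of the 3 entries varied less than its parts, at 151, 148 and 148 FPKM in the S34F replicates and 168, 168 and 136 FPKM in the WT replicates. With SEPT5-GP1BB added to GP1BB, the log2 change turned to 0.020 (adjusted p = 1, limma), and with SEPT5 added as well it was -0.071. Both sums were chosen after the values were seen. How the fragments of the locus were divided among the 3 entries was not tested, and the level of GP1BB cannot be told apart from that division.

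GP1BA encodes the alpha chain of GPIb, the part that binds von Willebrand factor. It measured 0.746, 1.11 and 0.728 FPKM in the S34F replicates and 1.13, 0.728 and 0.793 FPKM in the WT replicates. S34F replicate 2 and WT replicate 1 were the high libraries, and the other 4 lay together. With a mean of 0.874 FPKM it was not tested across genes, and the difference in mean log2(FPKM + 1) was -0.017 (exact permutation p = 0.8, two-sided). GP1BB was 73.4 to 142 times GP1BA in FPKM within a library.

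GP9 encodes the third chain of the complex, without which GPIb reaches the surface poorly. It was listed at 0 in 5 libraries and at 0.0449 FPKM in S34F replicate 2, which is about 0.90 of a fragment. A limit of 3 fragments allows up to 0.129 to 0.165 FPKM for GP9, depending on the library, so no fold between the groups was formed. Against that limit, the deposited FPKM of GP1BB, which is subject to the division of the locus described above, was at least 491-fold higher than GP9 in S34F replicate 1, the library with the smallest such bound, and the planned ratios of GP1BB and GP1BA to GP9 were not formed. The 3 chains of this complex were thus measured at near 100 FPKM, near 1 FPKM and under the limit.

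ITGA2B, on the minus strand of chr17:44372180-44389505, encodes the alpha chain of the fibrinogen receptor and is widely used as an early megakaryocyte marker. It measured 1.56, 1.54 and 0.958 FPKM in the S34F replicates and 1.37, 1.36 and 1.64 FPKM in the WT replicates. S34F replicate 3 was the lowest library and WT replicate 3 the highest, and the other S34F libraries lay above the other WT libraries. The log2 change was -0.072 (SE 0.14, 95% interval -0.40 to 0.26), and it passed neither limma (p = 0.623, adjusted p = 1) nor the exact permutation test (p = 0.8). Without S34F replicate 3 it turned to 0.056, and without both libraries numbered 3 to 0.11 (adjusted p = 0.479, limma).

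ITGB3, at chr17:47253846-47311816 on the plus strand, encodes the beta chain, which also pairs with the ITGAV chain in other cells. It measured 1.02, 1.31 and 1.58 FPKM in the S34F replicates and 1.499, 1.32 and 1.05 FPKM in the WT replicates. The S34F libraries held both the lowest and the highest value. The log2 change was 0.0058 (SE 0.14, 95% interval -0.32 to 0.33; limma p = 0.967 and adjusted p = 1, exact permutation p = 1), and its sign changed to -0.080 without S34F replicate 3 and to -0.070 without WT replicate 3. The entry AC068234.1 shares 51.6% of the ITGB3 exonic bases on the same strand, and it was listed at 0 in 5 libraries and at 0.0050 FPKM in WT replicate 1.

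The ratio of ITGA2B to ITGB3 does not depend on the scaling of a library. It was 1.54, 1.17 and 0.606 in the S34F replicates and 0.914, 1.03 and 1.56 in the WT replicates. The groups overlapped, with means of 1.10 ± 0.468 in S34F and 1.17 ± 0.343 in WT (SD, n = 3 each). The log2 difference was -0.14 (exact permutation p = 0.8, two-sided, 1 ratio formed), and it was 0.24 without S34F replicate 3 and 0.084 without WT replicate 3. The chains of this receptor were thus measured at similar FPKM in both groups, with neither chain higher in every library.

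TUBB1, at chr20:59019254-59026654 on the plus strand, encodes the beta tubulin of the microtubule ring that gives platelets their disc shape. It measured 5.45, 6.93 and 7.64 FPKM in the S34F replicates and 7.21, 7.37 and 4.56 FPKM in the WT replicates. WT replicate 3 was the lowest library and S34F replicate 3 the highest, and the other libraries lay between them in mixed order. The log2 change was 0.070 (SE 0.20, 95% interval -0.40 to 0.54), with p = 0.735 and adjusted p = 1 in limma and an exact permutation p of 0.8. It was -0.021 without S34F replicate 3, -0.12 without WT replicate 3 and -0.21 without both (adjusted p = 0.445, limma). ATP5F1E, a subunit of the mitochondrial ATP synthase, overlaps 1188 of the 3496 exonic bases of TUBB1 on the opposite strand and measured 48.9 to 70.5 FPKM, and the strandedness of the libraries is not given in the sources used here.

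FLI1, at chr11:128686535-128813267, encodes the ETS factor that drives late megakaryocyte genes, including GP9 and GP1BA. It was listed at 0 in S34F replicate 1 and WT replicate 3, and the highest value was 0.0130 FPKM in WT replicate 2. All 6 libraries were at or under 1.80 fragments, within the limit of 3 fragments, which corresponded to at most 0.0273 FPKM. No group difference was therefore detectable for FLI1 at this depth.

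**Figure D1:**
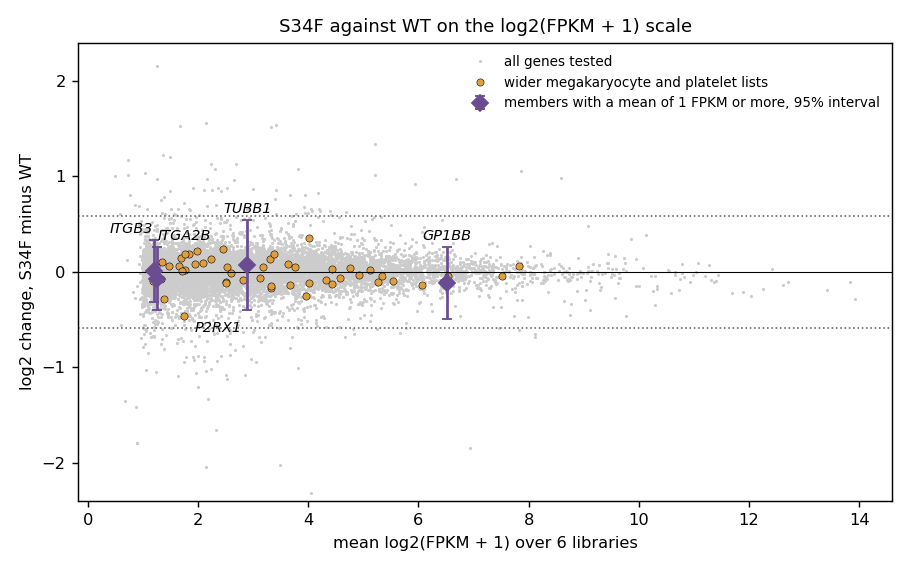
Log2 change of S34F against WT on the log2(FPKM + 1) scale against mean log2(FPKM + 1), 1 grey point for each of the 10942 genes tested, orange points for the wider megakaryocyte and platelet lists and purple diamonds with 95% intervals for the 4 tested members. The members lie between -0.12 and 0.070, inside the dotted lines of a 1.5-fold change, and P2RX1 is the lowest orange point at -0.46.

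The 4 tested members were also compared with each other across the libraries of both groups. Over the 6 libraries, ITGA2B ran opposite to TUBB1, with a Spearman's rho of -1 (exact permutation p = 0.0028, adjusted p = 0.0167 over 6 pairs) and a Pearson's r of -0.707 (exact p = 0.0847, adjusted p = 0.0931). The r was -0.767 without S34F replicate 3 and WT replicate 3. ITGB3 ran with TUBB1, at r = 0.888 (exact p = 0.0194, adjusted p = 0.0528) and rho = 0.886 (exact p = 0.0333, adjusted p = 0.0667), and at r = 0.663 without S34F replicate 1 and WT replicate 3. ITGA2B and ITGB3 themselves were opposed, at r = -0.809 (exact p = 0.0264, adjusted p = 0.0528) and rho = -0.886 (exact p = 0.0333, adjusted p = 0.0667), and at r = -0.732 without both libraries numbered 3. GP1BB ran with TUBB1 at r = 0.821 (exact p = 0.0236, adjusted p = 0.0528) and rho = 0.771 (exact p = 0.103, adjusted p = 0.103), and with ITGB3 at r = 0.801 (exact p = 0.0833, adjusted p = 0.0931), which was 0.450 without S34F replicate 1 and WT replicate 3. ITGA2B and GP1BB were at r = -0.663 (exact p = 0.0931, adjusted p = 0.0931), which was -0.994 without both libraries numbered 3. Of the 6 pairs, only the rank order of ITGA2B and TUBB1 passed the adjustment. That order includes a near tie in ITGA2B, at 1.369 FPKM in WT replicate 1 and 1.359 FPKM in WT replicate 2. Calculated back from FPKM, these were approximately 117.9 and 118.3 fragments. Counting error between such close values is not included in the p-value, so the rho of -1 could change with it. These permutations treat the 6 libraries as exchangeable, which takes no account of the group, of the replicate number or of both libraries numbered 3 standing apart.

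The genes most like GP1BB over the 6 libraries were sought among the 10942 genes by Pearson's correlation of log2(FPKM + 1). They were POGK at r = 0.994, VAPA at r = 0.988 and FAM210B at r = 0.9855, with means of 8.54, 11.5 and 20.7 FPKM. Of the genes compared, 99 exceeded an r of 0.9, and all of these values share the same 6 libraries.

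Wider lists placed the members among other genes of the lineage. They held 89 genes in 5 groups, of which 83 were analysed. Among the 16 transcription factors, 12 averaged 1 FPKM or more and 9 of them 10 FPKM or more. GATA1, which drives both megakaryocyte and red cell genes, measured 183 ± 35.7 FPKM in S34F and 186 ± 9.50 FPKM in WT (SD, n = 3 each), above 99.3% of genes, and NFE2, needed for platelet release, measured 90.5 ± 10.2 and 93.2 ± 8.46 FPKM. ERG, an ETS factor close to FLI1, was at or under 3 fragments in every library. It was the only factor of this list at the limit.

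No factor in that list was called in S34F, with 6 of 12 above and 6 of 12 below WT and a median log2 change of -0.0048, against 0.014 over all genes tested. S34F replicate 3 had the lowest GATA1, at 142 FPKM against 175 to 206 FPKM in the other libraries. Groups did not overlap for 1 of the 12, against 7.38% of all genes tested. It was ZFPM1, a GATA1 partner, whose log2 change was 0.13 (SE 0.098, limma adjusted p = 1).

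The adhesion and collagen receptors were present at lower levels than the factors, whose median was 11.8 FPKM. Of 16 genes, 7 averaged 1 FPKM or more and 2 of them 10 FPKM or more, and the median was 0.177 FPKM. ITGB1, a beta chain used by most cells, measured 17.2 ± 1.51 FPKM in S34F and 13.8 ± 4.47 FPKM in WT, and ITGA5, its fibronectin-binding partner, measured 12.9 ± 1.12 and 12.4 ± 1.62 FPKM. GP6, the collagen receptor, had a mean of 2.62 FPKM, whereas GP5, the remaining chain of the von Willebrand factor receptor, did not exceed 0.0406 FPKM. CLEC1B and ITGA2, 2 further receptors of this list, were at or under 3 fragments in every library. Of the 7 tested, 6 were above and 1 below WT, and over all 10942 genes tested 5973 were above and 4969 below. Of these 7 receptors, 0 were called and 0 had groups that did not overlap, against 0.585% and 7.38% of all genes tested.

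Among agonist receptors and their signalling proteins, 18 of 20 genes were analysed and 10 were tested. PTGS1, the cyclooxygenase that aspirin blocks in platelets, measured 13.3 ± 1.85 FPKM in S34F and 16.0 ± 0.301 FPKM in WT, and F2RL3, a thrombin receptor, measured 6.33 ± 2.85 and 6.34 ± 1.06 FPKM. F2RL3 was lowest in S34F replicate 3, at 3.05 FPKM against 5.11 to 8.11 FPKM in the other libraries, and without both libraries numbered 3 its log2 change was 0.17 (limma adjusted p = 0.252) instead of -0.082. Groups did not overlap for 3 of the 10, PTGS1, GNA13 and P2RX1, and 0 were called. Over the 5 wider lists they did not overlap for 4 of the 50 genes tested, against 7.38% of all genes tested, so the count is near the background.

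P2RX1, an ATP-gated channel of platelets, was the only gene of the 50 tested in the 5 wider lists with an unadjusted p under 0.05 by limma, a share of 2% against 2.39% of all genes tested. Without both libraries numbered 3, the shares were 18% (9 of 50) and 16.9%. It measured 1.70, 2.15 and 1.74 FPKM in the S34F replicates and 2.94, 2.85 and 3.03 FPKM in the WT replicates. Every S34F library lay below every WT library. The log2 change was -0.46 (SE 0.11), with p = 0.00352 and adjusted p = 1 in limma and an exact permutation p of 0.1, the smallest possible. That was under a 1.5-fold change on this scale, and past it with a pseudocount of 0.1, at -0.64 (limma adjusted p = 1).

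Granule genes and cytoskeleton genes completed the lists. Of 22 granule genes, 18 were analysed and 10 tested, with CD63, a granule membrane protein of many cells, at 245 ± 114 FPKM in S34F and 223 ± 43.5 FPKM in WT, and SRGN, the proteoglycan that packs granule cargo, at 83.2 ± 6.90 and 89.5 ± 5.92 FPKM. CD63 was highest in S34F replicate 3, at 375 FPKM, and next in WT replicate 3, at 273 FPKM, and without both its log2 change was -0.14 (limma adjusted p = 0.435) instead of 0.057. VWF, MMRN1 and F13A1, cargo typical of the lineage, were at or under 3 fragments in every library. Of 15 cytoskeleton genes, 11 were tested, with FERMT3, an activator of the platelet integrin, at 63.8 ± 14.8 and 69.1 ± 5.17 FPKM, and TLN1, which links that integrin to actin, at 43.9 ± 4.28 and 46.8 ± 2.52 FPKM. In both lists 7 tested genes were below WT, 0 were called and 0 had groups that did not overlap. Median log2 changes were -0.089 for granule and -0.064 for cytoskeleton genes. Over all 10942 genes tested, 4969 were below WT, 0.585% were called and 7.38% had groups that did not overlap.

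**Figure D2:**
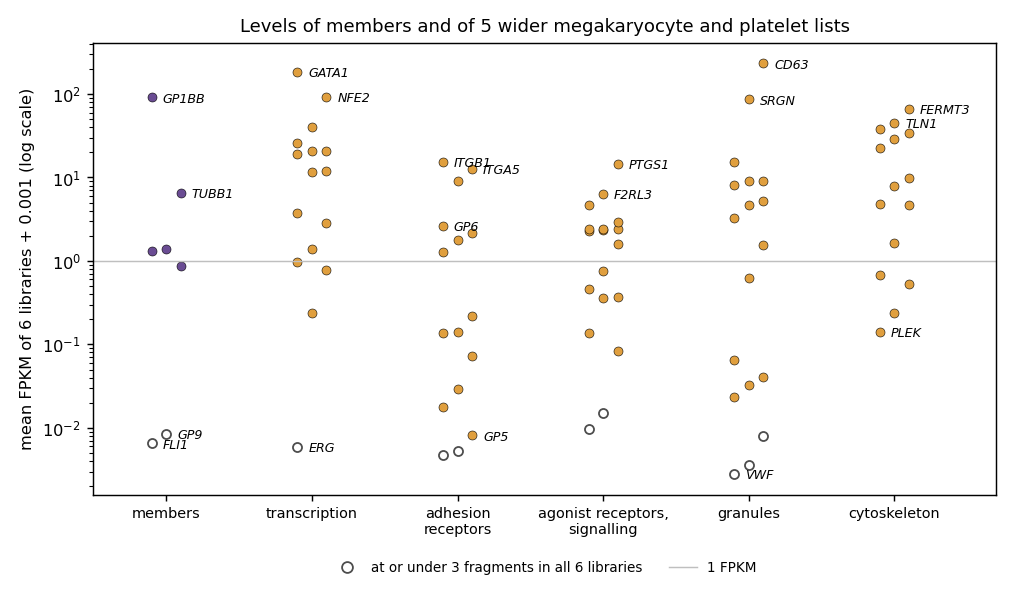
Mean FPKM over the 6 libraries plus 0.001 on a log axis, 1 point per gene, for the members in purple and for 5 wider lists in orange. Transcription factors reach 185 FPKM (GATA1), while open circles, at or under 3 fragments in all libraries, hold FLI1, GP9, ERG and VWF.

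Markers of other cell types were measured beside the members. SKM-1 is known as a line of monocytic type, yet of 12 monocytic and granulocytic markers only CD68 and LYZ averaged 1 FPKM or more, at 46.3 and 15.7 FPKM, and MPO, ELANE, S100A8 and FCN1 were at or under 3 fragments in every library. The list summed to 42.7 to 70.9 FPKM in S34F and 61.5 to 83.2 FPKM in WT. Of 12 erythroid genes, 11 averaged 1 FPKM or more, led by the embryonic globin HBE1 at 5461 FPKM, and the list summed to 11992 to 13694 FPKM in S34F and 11566 to 12635 FPKM in WT. Of the 10 endothelial markers, 9 were analysed, CDH5, KDR, EMCN, SELE and VWF were at or under 3 fragments in every library, and the sum was 1.28 to 1.88 FPKM over all libraries, with PECAM1 the highest at 1.28 FPKM. Of 8 lymphoid markers, 6 were analysed, and only CD3D, at 14.4 FPKM, averaged 1 FPKM or more, with a summed level of 9.13 to 15.5 FPKM in S34F and 17.5 to 17.8 FPKM in WT. The part of these levels in the values of the members was not tested.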

How the data were processed

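The authors deposited 1 table of FPKM for 31142 genes in 6 libraries. The table is named as one of raw counts, yet of its values above 0, 99.99% were fractional, so no count model was run. The submitters' processing notes name StringTie and edgeR. The aligner, the genome build, the annotation and the strandedness are not given in the sources used here. The deposited columns of fold change, p-value, q-value and regulation were not used, and all columns of per-sample values were.

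S34F was compared with WT by limma 3.58.1 in R 4.3.3 (empirical Bayes with a mean-variance trend, two-sided, Benjamini-Hochberg over 10942 genes) on log2(FPKM + 1), for genes with a mean of at least 1 FPKM. A call needed an unadjusted p under 0.05 and a fold change above 1.5. Single values were tested by exact permutation. Fragment limits rest on approximate depths from single-exon genes and cover counting error only. Positions came from GENCODE 29, which holds 31002 of the 31142 identifiers, and MKL1 and G6B were found as MRTFA and MPIG6B. The other tests ran under Python 3.11.15 with scipy 1.17.1, pandas 2.3.3 and numpy 2.4.6, figures were drawn with matplotlib 3.10.9, and the limma script was tested on simulated data.

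The members and lists were chosen with earlier results of these data known. All members were named, and from each wider list every gene called, the 2 with the highest mean, and, after their values were seen, genes at the detection limit, genes whose groups did not overlap, GP6 and GP5. A result on 1 of these is not reported here. Libraries with the same replicate number deviated together, at correlations of 0.212, 0.174 and 0.38 for numbers 1, 2 and 3, each above 0.1, so by that rule libraries with the same number were treated as pairs in an alternative with a replicate block. Unlike numbers reached similar values (S34F 2 and WT 1, 0.197; S34F 1 and WT 2, 0.134), which leaves the pairing of numbers 1 and 2 undecided. The values among numbers 1 and 2 are also tied to that of number 3, because deviations from a group mean cancel within the group. The alternatives were other scalings, pseudocounts, filters and variance settings, the block, and libraries left out.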

Additional observations from a re-analysis of the deposited data

How the results depend on the processing

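No member was called under any of 18 alternatives. The replicate block, which pairs libraries by number, called 87 genes (35 up and 52 down) against 64, called no member, gave limma adjusted p of 0.994 for ITGA2B, 0.999 for ITGB3, 0.994 for GP1BB and 0.994 for TUBB1, and changed no other call of the members or wider lists. Over all genes tested, 122 were called with a pseudocount of 0.1, 122 with 0.01, 22 with a mean of at least 5 FPKM and 183 without both libraries numbered 3, where 8 had an adjusted p under 0.05 by limma. Leaving out 1 library gave 66 to 180 calls, the highest without S34F replicate 3, and 0 to 3 genes at an adjusted p under 0.05, with 1 without S34F replicate 1 and 3 without WT replicate 3. The wider lists had 1 call, P2RX1, with a pseudocount of 0.1 and 1 with 0.01.

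Signs were not stable for ITGA2B, ITGB3, TUBB1 and the ratio of ITGA2B to ITGB3. GP1BB stayed negative except in the sum with SEPT5-GP1BB, which was chosen after the values were seen. Leaving out 1 library moved the log2 change of ITGA2B from -0.14 to 0.056, of ITGB3 from -0.080 to 0.098, of TUBB1 from -0.12 to 0.19 and of GP1BB from -0.27 to -0.037, and the log2 ratio of ITGA2B to ITGB3 from -0.43 to 0.24. The positive ratios were 0.24 without S34F replicate 3 and 0.084 without WT replicate 3. ITGB3 was -0.0018 under upper quartile scaling and -0.0010 without S34F replicate 2. Without both libraries numbered 3, the values were 0.11 for ITGA2B, -0.16 for ITGB3, -0.21 for TUBB1 and -0.36 for GP1BB (limma adjusted p = 0.109, over a range of adjusted p from 0.109 to 1 across 20 alternatives). With SEPT5-GP1BB added, GP1BB was at 0.020. The cause of these changes was not tested. With 3 libraries a group, the 95% intervals of the tested members reached up to 0.54 in log2 size, and GP9 and FLI1 could not be compared at this depth.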
